A study of Mastomys natalensis with 4 samples.

Results

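The genes described here encode subunits of the mitochondrial respiratory chain and of the ATP synthase. They were chosen by symbol alone: a probe set was a member where the platform annotation gave it a single mouse symbol beginning with Nduf, Sdha to Sdhd, Uqcr, Cox4 to Cox8 or Atp5, or reading Cyc1 or Cycs. This gave 103 probe sets for 75 genes, out of 12488 probe sets and 8251 genes with a single symbol on the array. Complex I accounted for 38 probe sets, complex II for 4, complex III for 9, complex IV for 23 and the ATP synthase (complex V) for 22. The rule also caught cytochrome c (1 probe set) and assembly factors (6 probe sets), which help to build a complex without staying in it.

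The respiratory chain passes electrons from NADH (complex I) and succinate (complex II) through complex III and the small carrier cytochrome c to complex IV, where oxygen is reduced. Complexes I, III and IV pump protons out of the matrix, and the ATP synthase makes ATP as the protons return. Most subunits are encoded in the nucleus, as are all the members here. In the stomach the parietal cell, whose proton pump consumes ATP to secrete acid, is known for its many mitochondria.

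The tissue was gastric mucosa of an African rodent, Mastomys natalensis, in which tumours of the enterochromaffin-like (ECL) cells of the stomach arise readily, and the arrays were the mouse U74 type. Total RNA came from 2 samples after 16 weeks of loxtidine (written loxitidine in the labels), at a stage labelled neoplasia of ECL cells, and from 2 samples after 8 weeks, at a stage labelled hyperplasia. All 4 samples carry the drug, an acid-suppressing antagonist of the histamine H2 receptor, and untreated mucosa was not analysed here. Treatment time and lesion stage differ together, the strain and age of the animals are not given in the sources used here, and whether different animals gave the samples of a group is not stated either. The p-values therefore reflect the spread among these 4 samples alone, which may be technical. The labels give each array a lot batch of its own, so batch and sample cannot be told apart.

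The arrays had median intensities of 19.2 and 18.9 in 16-week samples, against 15.45 and 17.3 in 8-week samples. A floor of 12.15 was set, below which intensities were treated as not measured, and the test covered the 7883 probe sets that exceeded it on 2 or more arrays. Parietal cell markers were present in all samples: the proton pump subunit Atp4a read 4850 and 4034 in 16-week samples, against 4442 and 5304 in 8-week samples. Of the ECL cell markers, chromogranin A (Chga) read 299 and 231 against 141 and 242, while histidine decarboxylase (Hdc), the histamine-making enzyme, lay under the floor on all 4 arrays. The RNA is that of a different genus from the probes, so the brightness of a probe set is not a transcript level. Only differences of the same probe set between samples are compared, and a dim probe set does not show an absent transcript. In such bulk samples fewer cells of a type and less RNA per cell cannot be told apart.

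On the deposited scale the members tended to lie lower at 16 weeks than at 8 weeks, by small amounts, and the direction depended on how the arrays were scaled. Of 68 tested genes, each represented by its brightest tested probe set, 44 were lower at 16 weeks and 24 higher. Their median log2 difference (16 weeks minus 8 weeks, as are all differences below) was -0.32, or 1.25-fold lower. Over all 5864 tested genes the median was 0.072 and 44.7% were lower. By probe set the members' tendency was weaker: of all 85 tested member probe sets 49 were lower (57.6%), with a median of -0.19. Over all 7883 tested probe sets the median was 0.086 and 43.7% were lower. With the arrays aligned on the control probe sets the members' median was 0.075 and 30 of 69 genes were lower, while the median of all tested probe sets stood at 0.41. In every scaling tried the median of the member genes lay below that of all tested probe sets, with a gap of -0.45 to -0.22. The member genes stand there by their brightest probe sets, so these medians are matched neither in brightness nor in probe sets per gene.

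No member passed limma's test once p-values were adjusted (Benjamini-Hochberg) across the tested probe sets, of which 0% were called. The smallest limma adjusted p among the 68 genes was 0.325, and over all 85 tested member probe sets it was 0.314. At an unadjusted p under 0.05, 4 of the 85 tested member probe sets were lower, beside a background of 5.87%, and 5 were higher, beside 8.08%. A Cox6b2 probe set among the lower ones passed the filter through the 8-week samples alone. Another Cox6b2 probe set and an Atp5d probe set among the higher ones passed through the 16-week samples alone, so the direction of each was fixed. The shares of lower and higher probe sets depended on the setting. On a common median 23 of 84 member probe sets were lower (27.4%, beside 12.3%) and 3 higher (3.57%, beside 4.36%). On the control probe sets 0 of 89 were lower (beside 1.82%) and 13 higher (14.6%, beside 24.1%). With a prior variance that follows intensity 15 of 85 were lower (17.6%, beside 6.7%) and 4 higher (4.71%, beside 7.83%). Without 16-week sample 1, 17 of 85 were lower (20%, beside 7.83%) and 3 higher (3.53%, beside 7.97%), while without 8-week sample 1 none was lower (beside 3.56%) or higher (beside 3.93%). Of the 68 genes, 32 were lower with no overlap between the groups (47.1%, beside 21.1% of all tested genes). A further 10 were higher with no overlap (14.7%, beside 27.5%). The lower ones include Ndufa3, Ndufb2 and Cox6b2, each with another tested probe set that was higher with no overlap. Over the 85 member probe sets 35 were lower with no overlap (41.2%, beside 20.6% of all tested probe sets). By the same count 20 were higher (23.5%, beside 28.7%), and in both directions some were let in through a single group. The background of lower genes without overlap rises with brightness, as given below, and the 21.1% is not matched to the members' brightness. A total of 60 genes lay above the floor on all 4 arrays, of which 42 were lower, and their median was -0.35. The filter let in Ndufb6 and Cox8a through the 16-week samples alone and Cox6b2 through the 8-week samples alone, so those 3 had to differ, and 5 more genes were above the floor on 3 arrays.

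**Figure D1:**
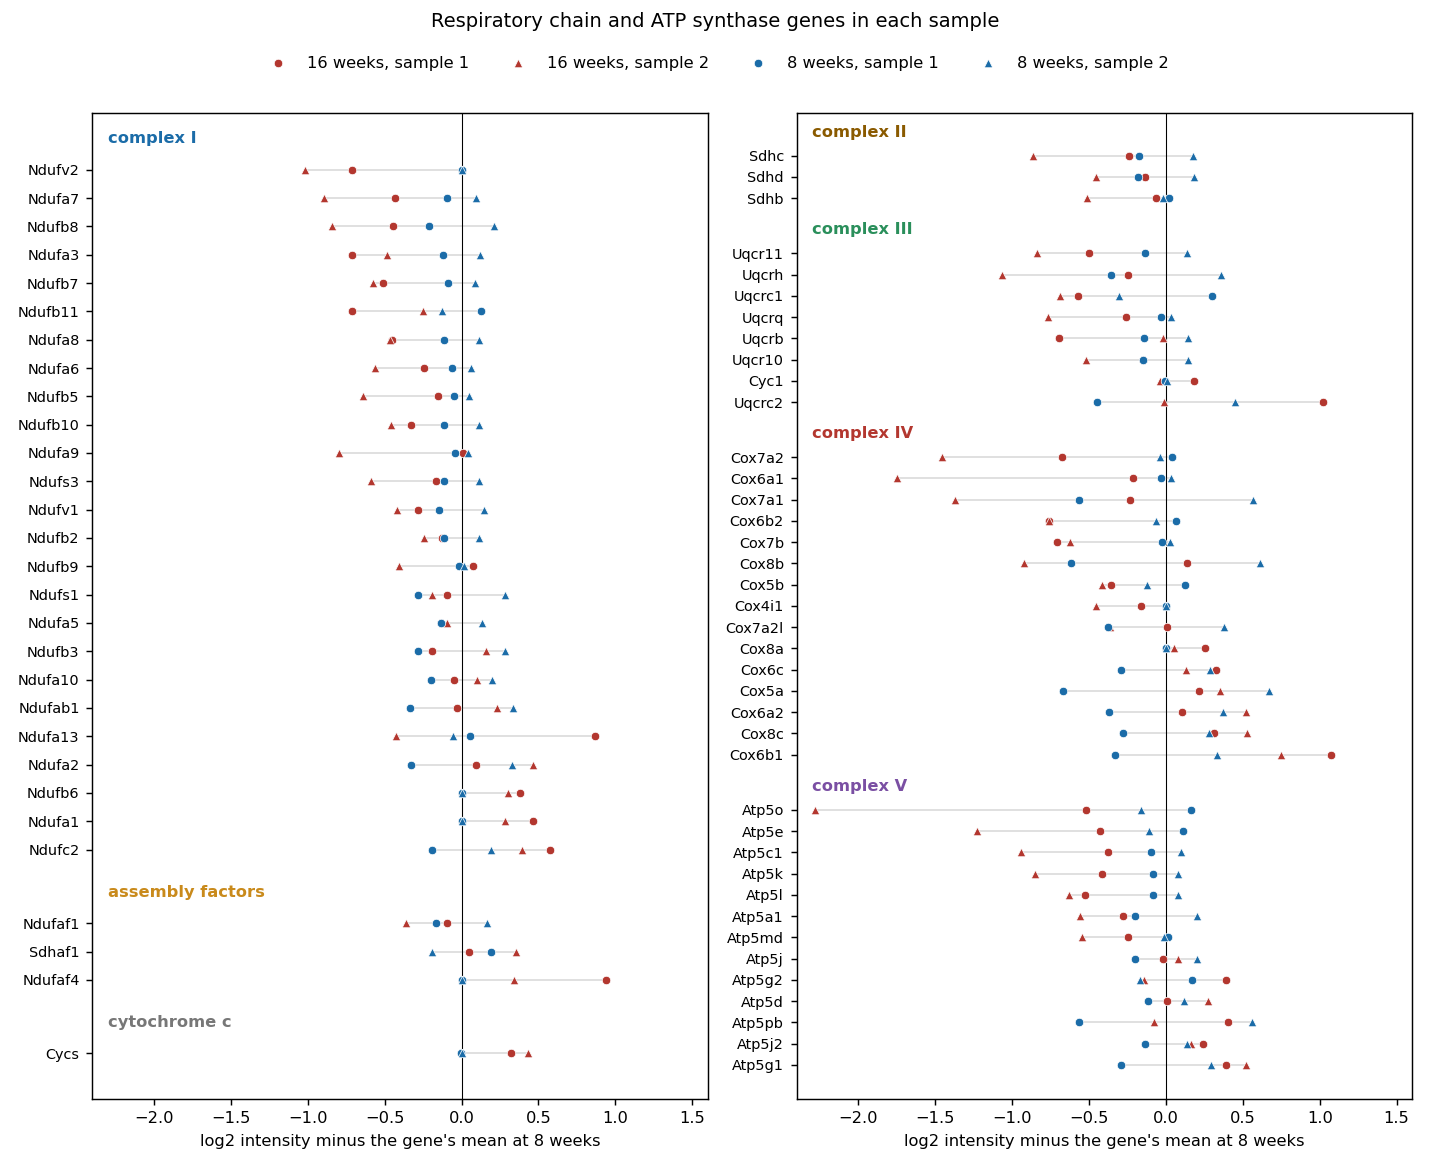
Each row is a tested member gene, grouped by complex, and each point a sample: the log2 intensity (floored at 12.15) minus the gene's mean at 8 weeks, with 16 weeks in red, 8 weeks in blue, sample 1 as circles and sample 2 as triangles. Red points lie mostly left of the line at 0, and the triangle of 16-week sample 2 is the leftmost point in 37 of the 68 genes. That sample was the lowest in 1574 of all 5864 tested genes.

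Complex I, the NADH dehydrogenase, had 18 of 25 tested genes lower at 16 weeks and 7 higher (median -0.35). The groups did not overlap in 13 of the lower genes (52.0% of the 25, beside 21.1% of all tested genes) and 3 of the higher (12.0%, beside 27.5%). These lower genes include Ndufa3 and Ndufb2, whose other tested probe sets were higher without overlap. The higher ones include Ndufb6, which could be tested only by being higher. The median of the complex depended on the scaling: it was -0.57 on a common median, -0.11 after quantile normalization and 0.10 on the control probe sets. It also moved with single samples, to -0.15 without 16-week sample 2 and -0.20 without 8-week sample 2. The brightest subunit, Ndufv1, which binds NADH and its flavin, read 787 and 714 in 16-week samples, against 864 and 1060 in 8-week samples (-0.35 ± 0.25, standard error (SE) here and below from n = 2 samples per group). Both 16-week values were below both 8-week values, but after quantile normalization the difference was 0.031 and on the control probe sets 0.018.

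Its partner in the NADH-binding module, the iron-sulphur protein Ndufv2, had the smallest p among the brightest probe sets of the member genes. Dimmer probe sets of Atp5d (0.94) and Ndufa3 (1.02), both higher at 16 weeks, had smaller ones. Ndufv2 read 78.8 and 63.5 in 16-week samples, against 129 and 129 in 8-week samples, a difference of -0.86 ± 0.25 (limma adjusted p = 0.325). The 8-week samples were equal and the groups well apart, but a second, dimmer Ndufv2 probe set read 39.0 and 37.6 against 35.7 and 45.3 (-0.07 ± 0.25), with overlapping groups. The largest iron-sulphur subunit, Ndufs1, read 156 and 146 against 137 and 202 (-0.14 ± 0.29), where the 16-week values lay between those of the 8-week samples, and 0.23 on the control probe sets. The core subunit Ndufs3, close to the quinone-binding site, gave -0.38 ± 0.27 from 232 and 173 against 240.0 and 282. All 4 tested genes of these catalytic subunits were lower, with the groups apart in 3 of them (beside 21.1% of all tested genes).

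The accessory subunits, which surround the catalytic core, went both ways. Of 21 tested Ndufa, Ndufb and Ndufc genes 14 were lower and 7 higher (median -0.19). Ndufa7 read 377 and 274 in 16-week samples, against 476 and 545 in 8-week samples (-0.66 ± 0.28). The membrane-arm subunit Ndufb7 read 407.5 and 389.8 against 546 and 615 (-0.54 ± 0.24), and Ndufb8, another subunit of that arm, 77.9 and 59.2 against 91.6 and 123 (-0.65 ± 0.29). In these 3 genes the groups did not overlap, and 16-week sample 2 was the lowest of the 4. Ndufa8 gave nearly equal values at 16 weeks, 94.6 and 93.7, against 119.6 and 139.8 at 8 weeks (-0.46 ± 0.24). Ndufb5, the second brightest of the complex, read 831 and 593 against 895 and 956 (-0.40 ± 0.28). Ndufa6, Ndufb10 and Ndufb11 were lower with the groups apart as well, at -0.40, -0.39 and -0.48.

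Of the higher accessory subunits, those without overlap between groups were Ndufa1, Ndufb6 and Ndufc2, all dim. Ndufc2 read 27.9 and 24.6 in 16-week samples, against 16.4 and 21.4 in 8-week samples (0.48 ± 0.27). Ndufa1, an X-linked subunit, read 40.3 and 35.5 against 29.2 and 29.2 (0.37 ± 0.24). Its second probe set read 13.7 and 15.2 against 6.3 and 9.8. With both 8-week values under the floor, that probe set could be tested only by being higher at 16 weeks. Ndufb6 was at least 1.27-fold higher, since both 8-week values, 10.7 and 10.8, lay under the floor. The acyl carrier protein Ndufab1, which also serves mitochondrial fatty acid synthesis, read 99.2 and 119 against 80.0 and 128 (0.10 ± 0.32), with overlapping groups. Ndufa13, also known as GRIM-19, read 141 in 16-week sample 1 and 57.7 in 16-week sample 2, on either side of the 8-week values of 80.3 and 74.7 (0.22 ± 0.47). The remaining accessory subunits, Ndufa2, Ndufa5, Ndufa9, Ndufa10, Ndufb3 and Ndufb9, overlapped between groups with differences of -0.39 to 0.28. For each of these 6 genes, as for Ndufab1, Ndufa13 and Ndufs1, the sign turned with at least 1 of the samples left out. Ndufb2 gave -0.19 on its brightest probe set, at 308 and 285 against 312 and 364. It gave 0.14 on another, at 203 and 204 against 178 and 190. On each probe set the groups were apart, in opposite directions, so Ndufb2 could not be given a direction.

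Ndufa3 could not be given a direction either. Its brightest probe set read 39.2 and 45.9 in 16-week samples, against 59.0 and 70.0 in 8-week samples (-0.60 ± 0.25), and its second 42.1 and 31.2 against 18.9 and 16.9 (1.02 ± 0.27). On each probe set the groups were apart, in opposite directions, and the identifiers of both mark shared probes.

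**Figure D2:**
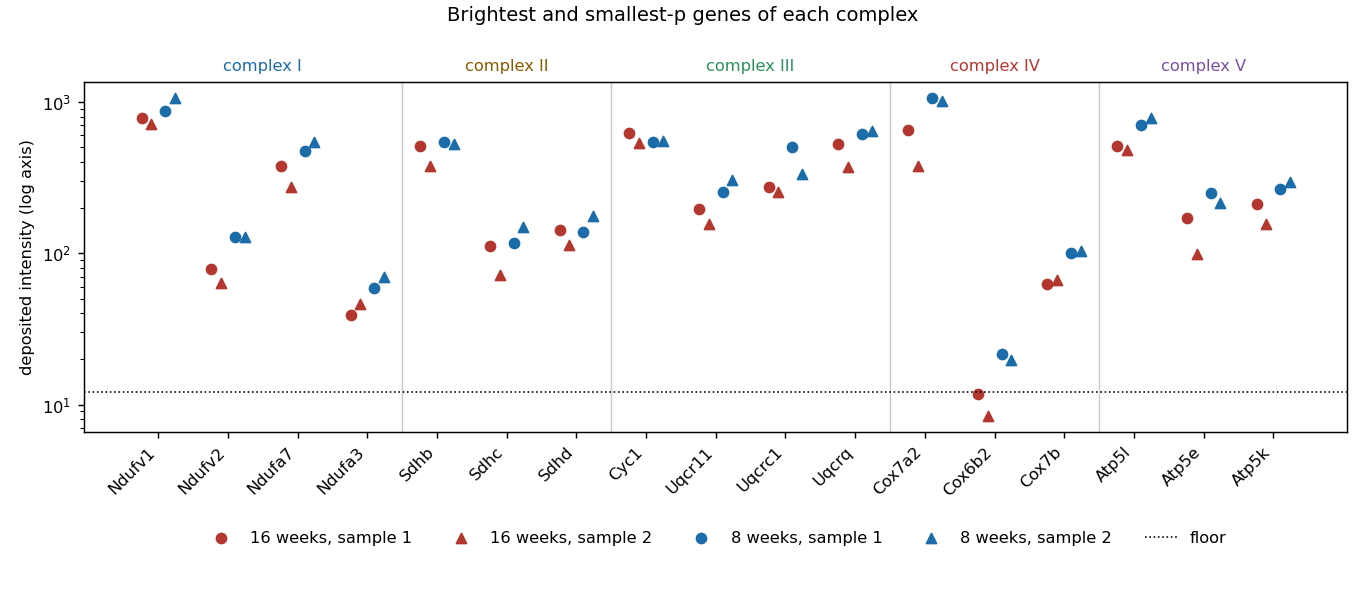
Deposited intensity (log axis) of the brightest gene of each complex and the 3 with the smallest p, with 16-week samples in red left of 8-week samples in blue. The dotted line is the floor of 12.15. Cox7a2 and Ndufv2 show both 16-week points below both 8-week points, whereas the Cyc1 points lie close together.

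Complex II, succinate dehydrogenase, is also an enzyme of the tricarboxylic acid cycle, and in humans its loss is known from tumours of neuroendocrine tissue. On the deposited scale its 3 tested genes were lower (median -0.30), and the median was 0.075 on the control probe sets. It was -0.14 without 16-week sample 2, -0.48 without 8-week sample 1 and -0.51 without 16-week sample 1. The iron-sulphur subunit Sdhb read 511 and 375 in 16-week samples, against 542 and 527 in 8-week samples (-0.29 ± 0.27). The membrane anchor Sdhc read 111 and 72.1 against 116 and 148 (-0.55 ± 0.32). The other anchor, Sdhd, read 141.5 and 114 against 137 and 177 (-0.30 ± 0.27). In each of the 3 genes 16-week sample 2 was the lowest sample, and 16-week sample 1 lay close to 8-week sample 1. Without 16-week sample 2 the difference of Sdhb was -0.066. It changed sign after quantile normalization (0.026) and on the control probe sets (0.081), as did that of Sdhd on the control probe sets (0.075). The flavoprotein subunit Sdha read 2.1 and 4.7 against 8.5 and 3.8, under the floor on all 4 arrays, so its probe set gave no measurement.

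Complex III, the cytochrome bc1 complex, had the lowest median of the complexes, -0.44, with 6 of 8 tested genes lower. It was lower in every scaling tried, at -0.66 on a common median, -0.39 after quantile normalization and -0.066 on the control probe sets. Its size rested in part on single samples, with -0.25 without 16-week sample 2 and -0.26 without 8-week sample 2. Uqcr11, a small membrane subunit, read 197 and 156 in 16-week samples, against 254 and 306.5 in 8-week samples (-0.67 ± 0.27). The core protein Uqcrc1 read 276 and 254 against 505 and 332 (-0.63 ± 0.30), with the 8-week samples further apart than the 16-week samples. Uqcrq, a ubiquinone-binding subunit, read 525 and 369 against 613 and 643 (-0.51 ± 0.28). The groups were apart in these 3 genes and in Uqcr10, at 59.1 and 45.8 against 59.3 and 72.6, where 16-week sample 1 and 8-week sample 1 were almost equal. These 4 made up 50% of the 8 genes, beside 21.1% of all tested genes, and none of the 8 was higher without overlap.

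The other complex III genes overlapped between groups. The hinge protein Uqcrh read 44.7 and 25.3 against 41.3 and 67.8 (-0.65 ± 0.41), and Uqcrb 48.2 and 77.0 against 70.8 and 86.1 (-0.36 ± 0.32). The second core protein, Uqcrc2, gave 0.50 ± 0.49 from a dim probe set with 8-week sample 1 under the floor. Cytochrome c1 (Cyc1), the haem subunit that hands electrons to cytochrome c, read 625 and 535 against 547 and 553 on its brightest probe set (0.07 ± 0.24) and 358 and 233 against 398 and 389 on its second (-0.45 ± 0.30). The 2 Cyc1 probe sets thus went apart, and the second, with the lower reading at 16 weeks, is the one whose identifier marks neither shared nor reduced probes. Cytochrome c itself (Cycs), the electron carrier that also triggers apoptosis when released, read 15.2 and 16.4 against 8.2 and 12.2 (0.37 ± 0.23). Its 8-week sample 1 lay under the floor and its difference is therefore a lower bound.

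Complex IV, cytochrome c oxidase, was mixed, with 9 of 15 tested genes lower, 6 higher and a median of -0.31. The groups did not overlap in 6 of the lower genes (40% of the 15, beside 21.1% of all tested genes) and 3 of the higher (20%, beside 27.5%). The filter fixed the direction of Cox6b2 among the lower ones and Cox8a among the higher. Of the 11 genes above the floor on all 4 arrays, 5 were lower without overlap (45.5%, beside 23.6% of all probe sets so filtered). Another 2 were higher (18.2%, beside 25.1%). Over the 15 genes, leaving out 16-week sample 2 gave a median of 0.0074 and leaving out 8-week sample 2 one of 0.15. The direction of the median thus rested on those samples, and on the control probe sets the median was 0.19. The brightest gene of the lower ones was Cox7a2, the widely expressed form of subunit VIIa. It read 648.5 and 377 in 16-week samples, against 1062 and 1006.5 in 8-week samples, a difference of -1.06 ± 0.34 (limma adjusted p = 0.331). Cox7b read 62.5 and 66.2 against 100.2 and 104 (-0.67 ± 0.23), with each pair of samples close together and the pairs well apart. Cox5b, which carries zinc, read 329 and 317 against 460.3 and 388 (-0.39 ± 0.24), and the regulatory subunit Cox4i1 31.1 and 25.4 against 34.8 and 34.9 (-0.31 ± 0.25). The groups were apart in these 4 genes, although Cox4i1 gave 0.060 on the control probe sets.

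Cox6a1, the widely expressed form of subunit VIa, rested on a single library. It read 35.5 in 16-week sample 2, and 103 in 16-week sample 1, against 117 and 122 at 8 weeks (-0.98 ± 0.54). Without 16-week sample 2 the difference was -0.21. Cox6b1, which bridges the dimer of the enzyme, had the highest difference among the brightest probe sets of the member genes. It read 139 and 111 in 16-week samples, against 52.6 and 83.2 in 8-week samples, a difference of 0.91 ± 0.33 (limma adjusted p = 0.349), with no overlap, on a probe set whose identifier marks reduced probes. Cox6c gave 0.23 ± 0.30 on its brightest probe set, and its 3 tested probe sets spanned -0.26 to 0.63. The 0.63 came from a probe set under the floor in both 8-week samples, which could be tested only by being higher. Cox5a gave 0.29 ± 0.48, with 8-week sample 1 under the floor and the highest value in 8-week sample 2. A second Cox5a probe set gave 0.24, but it too could be tested only by being higher, with both 8-week values under the floor.

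Several complex IV subunits have forms restricted to certain tissues. The heart and skeletal muscle forms Cox6a2, Cox7a1 and Cox8b were dim. Cox7a1 read 26.8 and 9.7 in 16-week samples, against 21.3 and 46.5 in 8-week samples, and Cox8b 39.7 and 19.1 against 23.6 and 55.3. Both were highest in 8-week sample 2, then in 16-week sample 1, and lowest in 16-week sample 2, so that the groups overlapped. Cox6a2 read 17.0 and 22.6 against 12.2 and 20.4, also with overlap. The list of striated muscle markers, which includes these 3 genes, had 8 of 15 tested genes higher and 7 lower, with summed intensities of 1049 and 1009 in 16-week samples, against 927 and 1061 in 8-week samples, and 5 of 23 genes on the array, Myh1, Myh2, Myh6, Tnnc1 and Tnni2, under the floor on all arrays. Their part in these values was not tested. Of the forms known from testis, Cox8c read 387 and 449 against 257 and 377.5 (0.42 ± 0.30), without overlap, while a second Cox8c probe set lay under the floor on all 4 arrays.

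Cox6b2, the other testis form, was at least 1.69-fold lower on its brightest probe set, with 11.7 and 8.4 at 16 weeks, under the floor, against 21.5 and 19.6 at 8 weeks. A second Cox6b2 probe set was at least 1.67-fold higher, with 17.2 and 23.8 in 16-week samples, against 6.7 and 10.9 in 8-week samples. The direction of Cox6b2 is therefore not settled by these probe sets. The common form Cox8a, at 14.5 and 12.6 against 2.0 and 2.9, was under the floor at 8 weeks, and was at least 1.11-fold higher. Cox7a2l, an assembly protein of respiratory supercomplexes, gave -0.18 ± 0.35 with overlapping groups and turned positive without 16-week sample 2 (0.0074), without 8-week sample 2 (0.20) and on the control probe sets (0.19).

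The ATP synthase consists of a catalytic head in the matrix, a membrane part with the rotating ring of c subunits, and stalks that join them. Of 13 tested genes 7 were lower and 6 higher. The groups did not overlap in the 7 lower genes (53.8% of the 13, beside 21.1% of all tested genes) and in 2 of the higher (15.4%, beside 27.5%). Their median was -0.40, but -0.18 with a lower floor and 0.031 without probe sets whose identifiers mark shared or reduced probes, -0.25 without 16-week sample 2 and -0.22 without 8-week sample 2. In the central stalk, Atp5c1 (gamma) read 384 and 259.5 in 16-week samples, against 467 and 535 in 8-week samples (-0.66 ± 0.30), and its second probe set gave -0.68 ± 0.27. Atp5e (epsilon) read 172 and 98.8 against 249.9 and 214 (-0.83 ± 0.35). The catalytic head subunit Atp5a1 (alpha) read 136 and 112 against 143 and 189 (-0.42 ± 0.28). These 3 genes had their lowest value in 16-week sample 2.

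Atp5o, the protein that ties the head to the outer stalk and confers oligomycin sensitivity, had the lowest difference of all members, -1.40 ± 0.61. It read 51.7 in 16-week sample 2, and 175 in 16-week sample 1, against 281 and 224 at 8 weeks. Without 16-week sample 2 the difference was -0.52, so its size rested on that sample. Among the small membrane subunits, Atp5l read 514 and 478 against 699.8 and 784 (-0.58 ± 0.24). Atp5k read 211 and 156 against 265.5 and 297 (-0.63 ± 0.27), and Atp5md 256 and 209 against 307 and 302 (-0.40 ± 0.25). The groups were apart in all 3 genes, although a second, dim Atp5l probe set gave 0.04 ± 0.30.

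The 6 higher ATP synthase genes were mostly dim. The c-ring subunit is made from several genes, of which Atp5g1 read 45.1 and 49.3 in 16-week samples, against 28.0 and 42.1 in 8-week samples (0.46 ± 0.30), with no overlap. Atp5g2, which encodes the same mature subunit, read 145 and 100.4 against 124.5 and 98.4 (0.12 ± 0.30), and was negative on a common median (-0.10). Atp5j2, the other gene without overlap on its brightest probe set, read 29.2 and 27.7 against 22.5 and 27.1 (0.20 ± 0.25). Atp5pb of the outer stalk gave 0.17 ± 0.45 and Atp5j, near the floor, 0.03 ± 0.26. For Atp5d (delta) 4 of 5 tested probe sets were higher and 1 lower, spanning -0.59 to 0.94, and the brightest gave 0.14 ± 0.25, or -0.077 on a common median. The 0.94 came from a probe set under the floor in both 8-week samples, which could be tested only by being higher. Another Atp5d probe set, above the floor on all 4 arrays, read 55.8 and 42.7 against 23.5 and 29.1 (0.90 ± 0.28), without overlap. The lower probe set read 12.6 and 4.8 against 20.4 and 17.0, near the floor or under it at 16 weeks. A second, dim Atp5g2 probe set read 30.8 and 21.4 against 3.5 and 20.2 (0.71 ± 0.36), without overlap and with 8-week sample 1 under the floor. Of these 6 genes, Atp5g1 alone stayed positive on a common median, each gene being represented there by its brightest probe set only.

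The assembly factors were few. Ndufaf1, a complex I assembly factor, read 79.1 and 65.8 in 16-week samples, against 75.4 and 94.7 in 8-week samples (-0.23 ± 0.26). Ndufaf4 read 26.1 and 17.2 against 13.6 and 13.6 (0.64 ± 0.30), the only one of the 3 tested without overlap, and Sdhaf1 27.6 and 34.1 against 30.5 and 23.4 (0.20 ± 0.28). The 7 genes with no tested probe set were Atp5mpl, Ndufa12, Ndufc1, Ndufs4, Ndufv3, Sdha and Sdhaf2. Of these, Ndufc1 reached 32.1 in 16-week sample 1 only, Ndufa12 21.1 in 16-week sample 2 only, Ndufs4 14.0 and Sdhaf2 12.5 in 16-week sample 1 only, and the others were under the floor throughout. Among 13 genes with 2 or more tested probe sets, the probe sets went in 1 direction in 6 and in both directions in 7. Some of these probe sets passed the filter through a single group, so their direction was fixed. Ndufa1, Cox5a, Cox6c and Atp5d each had such a probe set, through the 16-week samples, and the Cox6b2 probe sets passed through opposite groups. The agreement in Ndufa1 and Cox5a and the disagreement in Cox6b2 therefore add nothing on direction.

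The members' differences ran with brightness. In members with a geometric mean intensity over 256, 13 of 15 genes were lower (median -0.40), and of all 444 tested probe sets as bright 74.8% were lower, with a median of -0.32. Between 128 and 256 the medians were -0.53 for 8 members and -0.12 for 633 probe sets. Between 64 and 128 they were -0.36 for 19 members and 0.0017 for 1233 probe sets, and between 32 and 64 they were -0.065 for 10 members and 0.10 for 1911. In the dimmest class, up to 32, the 16 members had a median of 0.24, near the 0.19 of the 3662 probe sets as dim. Thus the brightest and the dimmest members had medians that differed from those of all probe sets of their brightness by -0.076 and 0.049, and the 3 classes between by -0.40 to -0.17. The share of all tested probe sets that were lower with no overlap also rose with brightness. From the dimmest class to the brightest it was 14.1%, 17.5%, 24.2%, 35.7% and 55.9%. In the same order 2 of 16, 3 of 10, 8 of 19, 6 of 8 and 13 of 15 members were lower with no overlap.

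**Figure D3:**
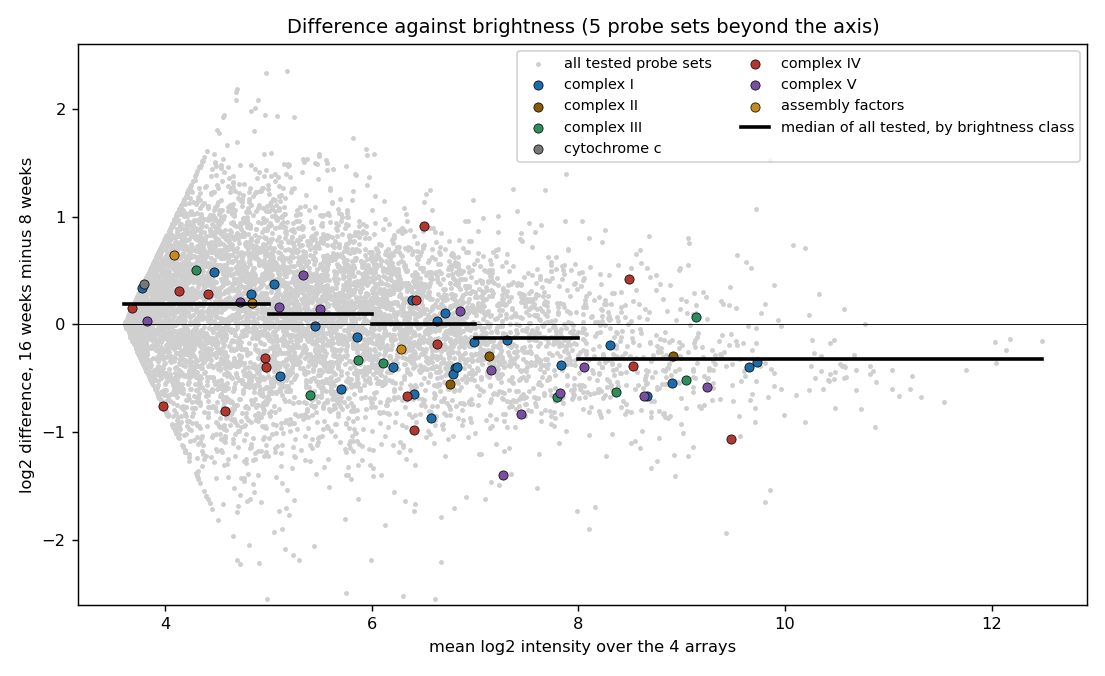
Log2 difference (16 weeks minus 8 weeks) against mean log2 intensity over the 4 arrays, with tested probe sets in grey, member genes coloured by complex and black bars for the median of all tested probe sets in each brightness class. The bars descend from 0.19 at the dim end to -0.32 at the bright end, and most members above 64 (6 on the log2 axis) lie below their bar.

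Normalizations that remove such a trend left a smaller gap. The members' median was -0.22 after quantile normalization and -0.21 after cyclic loess, beside 0.023 and 0.0065 for all tested probe sets. After quantile normalization 30 of 67 genes were lower with no overlap between the groups (44.8%, beside 23.8% of all tested genes) and 9 were higher with none (13.4%, beside 24.8%). After cyclic loess these were 31 of 67 lower (46.3%, beside 24.4%) and 8 higher (11.9%, beside 23.9%). On a common median 41 of 67 were lower (61.2%, beside 33.8%) and 5 higher (7.46%, beside 16.9%). On the control probe sets 11 of 69 were lower (15.9%, beside 7.61%) and 26 higher (37.7%, beside 52.9%), so that there more members were higher than lower without overlap, though fewer in share than among all genes. The array's own control probe sets, which include added bacterial sequences, had a median difference of -0.33 over the 37 above the floor on all arrays.

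**Figure D4:**
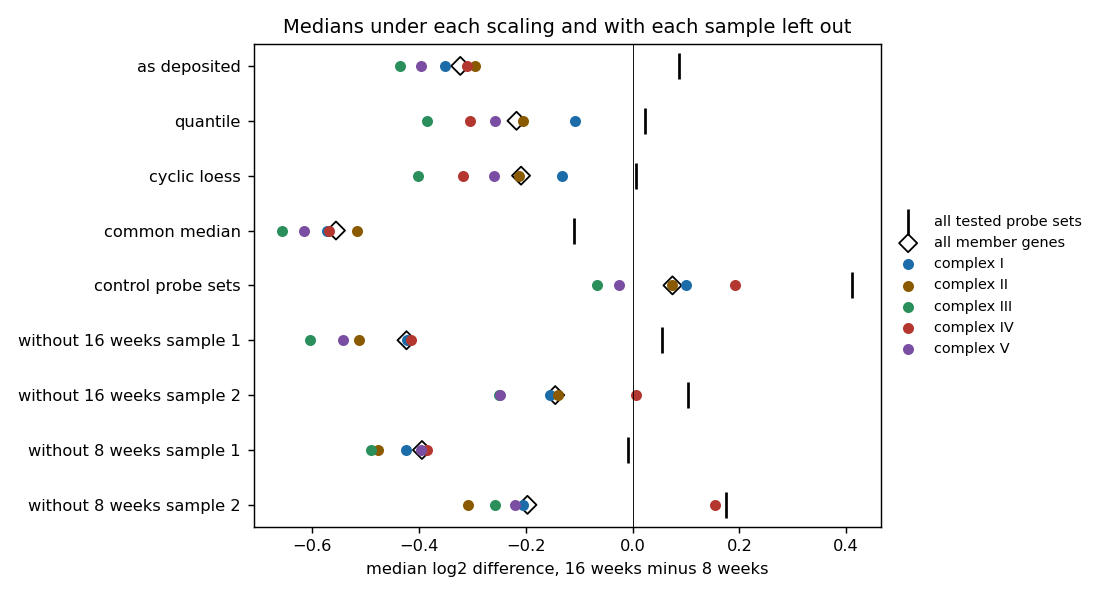
Median log2 difference (16 weeks minus 8 weeks) of each complex, of all member genes (open diamonds) and of all tested probe sets (vertical ticks) under each scaling and with each sample left out. The diamonds lie left of the ticks in all 9 settings, at -0.56 to 0.075, and right of 0 only with the control probe sets.

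Samples of the same group differed by nearly as much as the groups. In 50 of the 68 genes 16-week sample 2 was below 16-week sample 1, beside 3261 of all 5864 tested genes. The median difference (sample 2 minus sample 1) was -0.25, beside -0.065 over all tested genes. In 51 of 68 genes 8-week sample 2 was above 8-week sample 1, beside 3662 of all 5864. The median difference there was 0.23, beside 0.15 over all tested genes. In 37 of 68 members 16-week sample 2 was the lowest sample, and in 38 8-week sample 2 was the highest. Over all 5864 tested genes these counts were 1574 and 1633. With 16-week sample 2 left out the members' median difference was -0.14 and with 8-week sample 2 left out -0.20. It was -0.42 without the first 16-week sample and -0.39 without the first 8-week sample.

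**Figure D5:**
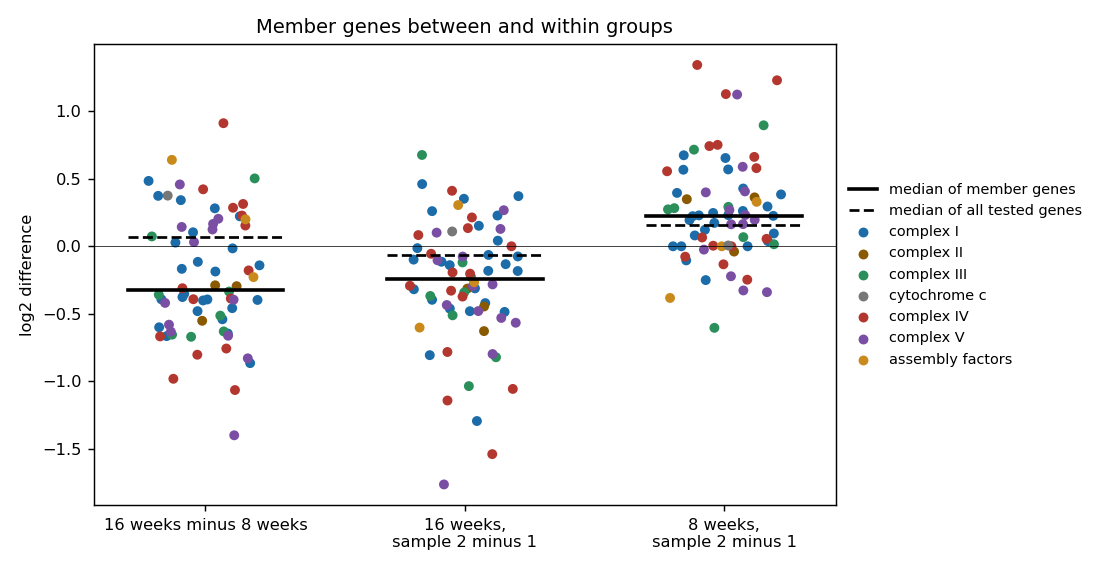
Log2 difference of each member gene between the groups (left) and between samples of 1 group (middle and right), coloured by complex, with the median of the members (solid) and of all tested genes (dashed). The medians of the members are -0.32, -0.25 and 0.23.

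Other mitochondrial genes are given for comparison, and those named were mostly the ones with the smallest p in each list. Of 17 tested genes of the tricarboxylic acid cycle, pyruvate dehydrogenase and related enzymes 13 were lower and the median was -0.39. Fumarase (Fh1) read 169 and 156 in 16-week samples, against 230.1 and 285 in 8-week samples (-0.66 ± 0.25), and the pyruvate dehydrogenase subunit Pdha1 122 and 115 against 173 and 199 (-0.65 ± 0.24). Malate dehydrogenase (Mdh2) read 314.5 and 230.0 against 559 and 395 (-0.81 ± 0.31), and the succinate-CoA ligase Suclg1 466.5 and 257 against 671 and 595 (-0.87 ± 0.36). In each of these 4 genes both 16-week samples were below both 8-week samples, but they were picked for the smallest p of the list. Over the list this held in 9 of 17 genes (52.9%, beside 21.1% of all tested genes). The 4 higher genes were Dld (0.30), Suclg2 (0.29), Dlat (0.28) and Mdh1 (0.26). Carriers, porins and electron transfer proteins had 12 of 17 genes lower, with a median of -0.23. The creatine kinase Ckmt1 gave -0.99 ± 0.27, the porin Vdac3 -0.86 ± 0.29 and the electron transfer flavoprotein Etfb -0.83 ± 0.32, while the phosphate carrier Slc25a3 gave 0.67 ± 0.23. Both 8-week values of Slc25a3, 7.0 and 10.1, lay under the floor, so it could be tested only by being higher at 16 weeks.

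Import and folding proteins had 11 of 16 genes lower and a median of -0.53, with the import receptor Tomm70a at -0.97 ± 0.24, the protease Lonp1 at -1.25 ± 0.37 and the prohibitin Phb2 at -0.69 ± 0.26, but the cristae protein Immt at 0.80 ± 0.28. Lonp1 lay under the floor in 16-week sample 2, at 5.1, so its difference is a lower bound in size. Genes of mitochondrial DNA upkeep and biogenesis held 3 of 7 lower and a median of 0.0014. The polymerase subunit Polg2 gave 1.29 ± 0.33 and the single-strand binding protein Ssbp1 -0.54 ± 0.28, and Tfam, the main transcription factor of mitochondrial DNA, was under the floor on all arrays. The 4 tested complex IV assembly genes had 2 lower and a median of 0.085. The antioxidant genes tested, 4 in all, were higher at a median of 0.24, with glutathione reductase (Gsr) at 1.03 ± 0.27. The inhibitor of the ATP synthase, Atpif1, read 238 and 162 against 216 and 209.6 (-0.12 ± 0.29). None of the genes in these lists passed limma's test.

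Marker lists of cell types are given beside the members. Of 13 parietal cell markers, all tested, 7 were lower and 6 higher, the median was -0.13, and the groups overlapped in 9. Among all 5864 tested genes they overlapped in 3011. The summed intensities of the parietal cell markers were 8412 and 7401 in 16-week samples, against 8495 and 10375 in 8-week samples. Cblif is counted both in this list and in that of chief cell markers. Atp4a alone gave 4850 and 4034 of the 16-week sums and 4442 and 5304 of the 8-week sums. Per marker, 16-week sample 2 was the lowest sample in 5 of 13 and 8-week sample 2 the highest in 7, beside 37 and 38 of the 68 members. The pump subunits Atp4b and Atp4a gave -0.84 ± 0.35 and -0.13 ± 0.26, whereas the histamine receptor Hrh2 gave 0.45 ± 0.32 and the water channel Aqp4 0.67 ± 0.56, these 4 being chosen after the values were seen. Smooth muscle markers had 8 of 10 tested genes lower, a median of -0.75 and sums of 1931 and 1944 in 16-week samples, against 3704 and 3204 in 8-week samples, and none of the 11 on the array was under the floor on all arrays. Surface and neck mucous markers had 5 of 7 tested genes lower and a median of -0.17, with sums of 9057 and 8457 against 9940 and 10277 and only Cd44 under the floor on all arrays.

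Each of the 3 tested chief cell markers was lower (median -0.17), and none of the 3 on the array was under the floor on all arrays. Their sums were 2906 and 3459 at 16 weeks, against 3441 and 3993 at 8 weeks. ECL and neuroendocrine markers were split, with 6 of 12 tested genes lower, a median of 0.024, sums of 1138 and 1015 against 953 and 1007, and Hdc alone of 15 under the floor on all arrays. Of 4 tested brown adipocyte markers, Cox7a1 and Cox8b among them, 3 were lower, with a median of -0.49, sums of 125 and 83.8 against 94.7 and 152 and Elovl3 under the floor on all arrays, and the defining Ucp1 read 30.7 and 26.1 against 12.9 and 12.2 (1.17 ± 0.24). The part of these cell types in the members' differences was not tested.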

How the data were processed

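Total RNA of 4 gastric mucosa samples, 2 a group by the labels' descriptions, was measured on Affymetrix mouse arrays. The authors deposited 1 linear intensity per probe set and array. The software behind these intensities and any scaling between arrays are not stated in the sources used here. Trimmed means (2% off each end) lay within 4.76% of their common mean, so the deposited scale was kept.

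Values under the floor, the median of the arrays' 40th percentiles (12.15), were set to it before log2 was taken. Probe sets above it on at least 2 of 4 arrays were tested with limma 3.58.1 (lmFit, eBayes) in R 4.3.3, 2-sided, with Benjamini-Hochberg adjustment over 7883 probe sets and a threshold of 0.05. The script was tested on simulated data. With 2 samples a group the estimate of the spread is borrowed across probe sets, and the number of arrays limits the precision. A difference is a lower bound in size where floored values lie only in its lower group, as in the 8 member genes concerned, and has no such bound where they lie in both, as in some genes of the other lists. A fold is given as "at least" where a whole group was floored.

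Symbols came from the platform's annotation, which can be old: 10833 probe sets had 1 symbol, 396 several and 1193 none. Of each complex the brightest gene, up to 6 genes with the smallest p, tissue forms and genes with several tested probe sets were named by rule, and others to account for all members. The members and lists were chosen with earlier results of these data known, so they are described by counts and medians without a test.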

Additional observations from a re-analysis of the deposited data

How the results depend on the processing

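The number of probe sets past the threshold stayed at 0 in all fits but that without the filter on dim probe sets, where it was 22, with 0 members among them. At an unadjusted p under 0.05 there were 1100 probe sets as reported. Without each sample in turn the members' median ranged from -0.42 to -0.14, that of complex I from -0.42 to -0.15, complex II from -0.51 to -0.14, complex III from -0.60 to -0.25, complex IV from -0.41 to 0.15 and complex V from -0.54 to -0.22, and lower member genes from 40 to 52. On a common median the members' median was -0.56, complex I -0.57 and complex V -0.62, with 14 genes higher. On the control probe sets the medians were 0.075 for all members and 0.10, 0.075, -0.066, 0.19 and -0.025 for complexes I to V, with 39 genes higher. Complex I gave -0.11 after quantile normalization, -0.13 after cyclic loess, -0.19 with a lower floor or without the filter, and -0.17 with probe sets averaged per gene. Complex V gave -0.18 with a lower floor, -0.20 without the filter and 0.031 without shared or reduced probe sets. The cause of these shifts was not tested.

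Of single genes, the sign changed after quantile normalization for Atp5j (-0.26), Ndufb2 (0.030), Ndufv1 (0.031) and Sdhb (0.026), and after cyclic loess for Atp5j (-0.28), Ndufb2 (0.033) and Ndufv1 (0.015). On a common median it changed for Atp5d (-0.077), Atp5g2 (-0.096), Atp5j (-0.19), Atp5j2 (-0.017), Atp5pb (-0.055), Cyc1 (-0.15), Ndufa10 (-0.19), Ndufab1 (-0.12) and Sdhaf1 (-0.021). On the control probe sets it changed for Cox4i1 (0.060), Cox6b2 (0.94, another probe set being brightest there), Cox7a2l (0.19), Ndufa5 (0.25), Ndufaf1 (0.14), Ndufb2 (0.18), Ndufb3 (0.35), Ndufb9 (0.20), Ndufs1 (0.23), Ndufv1 (0.018), Sdhb (0.081), Sdhd (0.075), Uqcr10 (0.035) and Uqcrb (0.012). Ndufb6 gave -0.35 without the filter, Cyc1 -0.45 without shared or reduced probe sets and -0.19 as a mean of its probe sets, and Ndufa3 0.21 as a mean. With a sample left out the ranges of 19 genes crossed 0: -0.14 to 0.39 for Atp5g2, -0.17 to 0.23 for Atp5j, -0.40 to 0.73 for Atp5pb, -0.39 to 0.96 for Cox5a, -0.058 to 0.68 for Cox6a2, -0.062 to 0.52 for Cox6c, -0.55 to 0.20 for Cox7a2l, -1.01 to 0.22 for Cox8b, -0.040 to 0.19 for Cyc1, -0.17 to 0.23 for Ndufa10, -0.42 to 0.87 for Ndufa13, -0.046 to 0.61 for Ndufa2, -0.25 to 0.016 for Ndufa5, -0.80 to 0.011 for Ndufa9, -0.23 to 0.44 for Ndufab1, -0.30 to 0.27 for Ndufb3, -0.41 to 0.073 for Ndufb9, -0.42 to 0.14 for Ndufs1 and -0.015 to 1.02 for Uqcrc2. In no alternative did a member pass the threshold.

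The replicate numbers carry no stated meaning, and over tested probe sets the replicate differences of the 2 groups correlated at -0.05. With the replicate block the members' median stayed at -0.32 and 0 probe sets passed.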
